A study of Mus musculus with 23 samples.

Results

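Fibroblasts that had been given the RNA of heart muscle cells were compared with fibroblasts that had received none. The treated group, fibroTIPeR, held 5 single mouse fibroblasts into which poly-A RNA of cardiomyocytes had been transfected with a lipid reagent, and the fibroblast group held 3 single cells whose labels give no transfection. These 8 cells were taken by their titles from the 23 of the study, each of which was 1 cell measured on 1 Affymetrix mouse array. All 34945 probe sets with 1 gene symbol entered the comparison, of 45101 on the array, and they covered 18193 genes. The 3 fibroControl cells, fibroblasts that had been given fibroblast RNA in the same way, and 4 untreated cardiomyocytes were set beside them. The other cells of the study were astrocytes, 6 given cardiomyocyte RNA (astroTIPeR) and 2 with a mock transfection (astroControl). These astrocytes entered the normalization, the shared estimate of the spread and the choice of a probe set per gene, and were not compared here. The labels give DMEM with fetal bovine serum for the culture of the isolated cells, a glass micropipette for collecting each cell, and amplification of its RNA before biotin labelling. They give no strain, age, tissue of the fibroblasts, amount of RNA or time after transfer, and no culture or animal of a cell. The p-values therefore reflect how far these single cells spread, part of which may be technical, and do not extend to cultures or animals.

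Transcriptome-induced phenotype remodeling (TIPeR) moves the messenger RNA population of a donor cell into a recipient cell, whose ribosomes can translate it. The question of such a transfer is whether the recipient takes on features of the donor. Fibroblasts are cells of connective tissue that make collagens, fibronectin and enzymes of the matrix, and carry the intermediate filament protein vimentin. Cardiomyocytes contract through sarcomeres of cardiac myosin, actin and troponin, are driven by calcium cycling through the sarcoplasmic reticulum, and live on fatty acid oxidation. The arrays do not separate RNA that was transferred from RNA made by the recipient. All levels given are log2 values that were quantile normalized. Their median over genes and cells was 5.70, and 1 in 10 exceeded 10.94; a difference is a log2 difference. No detection call was used, so a level below that median is read only as low.

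The fibroTIPeR cells were not alike in their libraries. The 3 probe sets that read 18S ribosomal RNA as a control averaged 12.38, 11.03, 13.48, 7.80 and 7.88 in fibroTIPeR 1 to 5, against 7.05, 7.25 and 8.06 in the fibroblasts and 12.08, 11.23 and 11.56 in the fibroControl cells. FibroTIPeR 1 to 3 thus lay at the level of the fibroControl cells, and fibroTIPeR 4 and 5 at that of untreated fibroblasts. The difference between fibroTIPeR and fibroblast cells was 3.06, with p = 0.0893 in a two-sided exact permutation test and 0.241 after adjustment over 3 technical levels; the smallest p that 5 against 3 cells allow is 0.0179. B2 repeat signal differed by 2.74 (exact p = 0.161, adjusted 0.241) and the 3' minus 5' signal of Gapdh by -1.06 (exact p = 0.25). The correlation over all probe sets with the fibroblasts averaged 0.64, 0.75 and 0.72 in fibroTIPeR 1 to 3 and 0.84 and 0.83 in fibroTIPeR 4 and 5. Untreated fibroblast 3 stood apart from the other fibroblasts, with 11.02 for B2 against 6.66 and 7.34. The part of these levels in the results that follow was not tested, and values are therefore given cell by cell.

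Few transcripts separated fibroblasts with cardiomyocyte RNA from untreated ones. Ferritin heavy chain (Fth1), the subunit of the iron storage shell that oxidizes iron, rose, and 9 probe sets fell, among them those of the calcium-binding protein S100g, the ciliary protein Lca5 and the mitochondrial ribosomal protein Mrpl19. No gene of the heart muscle lists was among them. In limma, with a mean per group over all 23 cells and Benjamini-Hochberg adjustment over the probe sets, 10 of 34945 passed an adjusted p of 0.05, which is 0.0286%; 1 was higher (0.00286%) and 9 were lower (0.0258%) in fibroTIPeR cells. At an unadjusted p under 0.05 there were 3632 probe sets (10.4%), 1686 higher and 1946 lower. All 5 fibroTIPeR cells lay above all 3 fibroblasts at 1010 probe sets (2.89%) and below them at 873 (2.5%). With fibroTIPeR 1 to 3 as the treated cells, 964 probe sets passed, 494 higher and 470 lower, and with fibroTIPeR 4 and 5, 0 passed in the same kind of limma fit, where 1397 had an unadjusted p under 0.05. After median centring in place of quantile normalization 1 passed, Fth1, and 0 were lower. The limma count ran from 0 without fibroTIPeR 3, with 2744 at an unadjusted p under 0.05, to 167 without fibroTIPeR 5. It was 2 without fibroTIPeR 1, 3 without fibroTIPeR 2 (3 higher and 0 lower), 14 without fibroTIPeR 4 (8 higher and 6 lower), 21 without fibroblast 1, 26 without fibroblast 2 and 3 without fibroblast 3.

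Fth1 was the 1 transcript that rose. On probe set 1448771_a_at its level was 12.58, 10.33, 11.96, 6.98 and 10.57 in fibroTIPeR 1 to 5 and 4.31, 3.51 and 5.82 in fibroblasts 1 to 3. The groups did not overlap, and fibroTIPeR 4, with the lowest level of the treated cells, lay nearest to fibroblast 3. The difference was 5.94 (SE 0.92, adjusted p = 0.0199) in limma, with a 95% interval of 4.06 to 7.82. The fibroControl cells were as high, at 10.97, 11.79 and 12.28, and the difference of fibroTIPeR from them was -1.20 (SE 0.92, adjusted p = 0.875). Cardiomyocytes, the source of the transferred RNA, had 4.28, 3.76, 5.29 and 4.74, so fibroTIPeR cells were above the cardiomyocytes too, by 5.96 (SE 0.84, adjusted p = 0.00026). The other Fth1 probe set, 1427021_s_at, had 6.63, 6.75, 6.56, 7.70 and 6.04 in fibroTIPeR and 5.88, 6.01 and 5.34 in fibroblast cells, a difference of 0.99 (SE 0.72, adjusted p = 0.678) in the same direction. Without fibroTIPeR 3 the adjusted p of the first probe set was 0.12, and it passed without each other cell. It passed in 17 of 22 alternative settings, with differences of 3.47 to 7.08; with the 18S level as a covariate it was 3.92 with an adjusted p of 0.323. Of 18 measured genes of iron handling it alone passed, where 0.0275% of all genes did (0.0055% higher and 0.022% lower), and the median difference of that list was -0.04, against 0.0040 over all genes. The transferrin receptor Tfrc, which brings iron into the cell, had 10.07, 11.65, 11.01, 10.71 and 11.55 in fibroTIPeR and 10.69, 11.22 and 10.77 in fibroblast cells, and the groups overlapped.

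The 9 transcripts that fell had moderate levels in untreated fibroblasts and low ones in every fibroTIPeR cell or nearly so. S100g, a vitamin D-regulated calcium-binding protein also known as calbindin-D9k, had 4.03, 3.68, 3.18, 5.91 and 6.37 in fibroTIPeR and 9.42, 9.23 and 8.63 in fibroblast cells. It fell by 4.46 (SE 0.85, adjusted p = 0.0498), and fibroTIPeR 4 and 5 were the highest of the treated cells. Lca5, a protein of the ciliary axoneme, had 4.22, 3.51, 2.04, 4.43 and 5.77 against 7.48, 7.55 and 12.05, and fell by 5.03 (SE 0.93, adjusted p = 0.0462). Its fibroblast mean rested in part on fibroblast 3, which was far above the other fibroblasts. Tor2a, a torsin of the endoplasmic reticulum, had 4.71, 5.06, 4.65, 4.31 and 5.66 against 8.76, 8.56 and 13.23, and fell by 5.30 (SE 0.96, adjusted p = 0.0462).

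Klrb1b, an inhibitory receptor of natural killer cells, had 2.92, 2.57, 2.11, 3.21 and 2.55 in fibroTIPeR and 7.07, 6.09 and 11.56 in fibroblast cells, and this probe set fell by 5.57 (SE 0.98, adjusted p = 0.0462). Fibroblast 3 was again the highest. Mrpl19, of the large subunit of the mitochondrial ribosome, had 4.22, 4.69, 3.42, 2.33 and 4.70 against 6.90, 6.54 and 10.56 and fell by 4.13 (SE 0.77, adjusted p = 0.048). Eny2, a subunit shared by a histone deubiquitinase module and an mRNA export complex, had 4.58, 3.68, 2.72, 4.52 and 4.61 against 7.09, 7.10 and 9.38 and fell by 3.84 (SE 0.71, adjusted p = 0.0462). Only 3 of its 6 probe sets and 2 of the 4 for Mrpl19 had the sign of the one that passed. The predicted genes Gm7854 and Gm38491 fell by 3.98 (adjusted p = 0.0322) and 3.07 (adjusted p = 0.0462), and in both the groups did not overlap. Spaar, which encodes a small lysosomal polypeptide, fell by 4.64 (SE 0.83, adjusted p = 0.0462) although its groups overlapped: fibroTIPeR 5 had 6.69, above fibroblast 1 at 6.51. It was named after its values were seen, since the naming rule asked for groups that do not overlap. Probe sets whose names end in _x_at, _s_at or _a_at, as those of Tor2a, Spaar, Eny2 and Fth1 do, can share sequence with other transcripts.

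The levels of these 9 probe sets in fibroblasts given fibroblast RNA are set beside them. S100g had 4.50, 4.78 and 3.35 in the fibroControl cells, Lca5 3.82, 5.10 and 4.53 and Tor2a 4.28, 5.87 and 5.37. Over the 9 the difference of fibroTIPeR from fibroControl ran from -0.49 for Lca5 to 0.72 for Eny2, and 0 of the 9 passed there. A comparison of fibroControl with fibroblast cells would share the 3 fibroblasts on which the 9 were chosen, so it was not counted. Fibroblast 3 was the highest of the 8 cells at 8 of the 9. The fibroTIPeR mean was under the median level of all genes at 9 of 9, so the sizes of these differences rest on low signals. None of the 9 passed without fibroTIPeR 2 or without fibroTIPeR 3, and none without fibroblast 3.

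**Figure D1:**
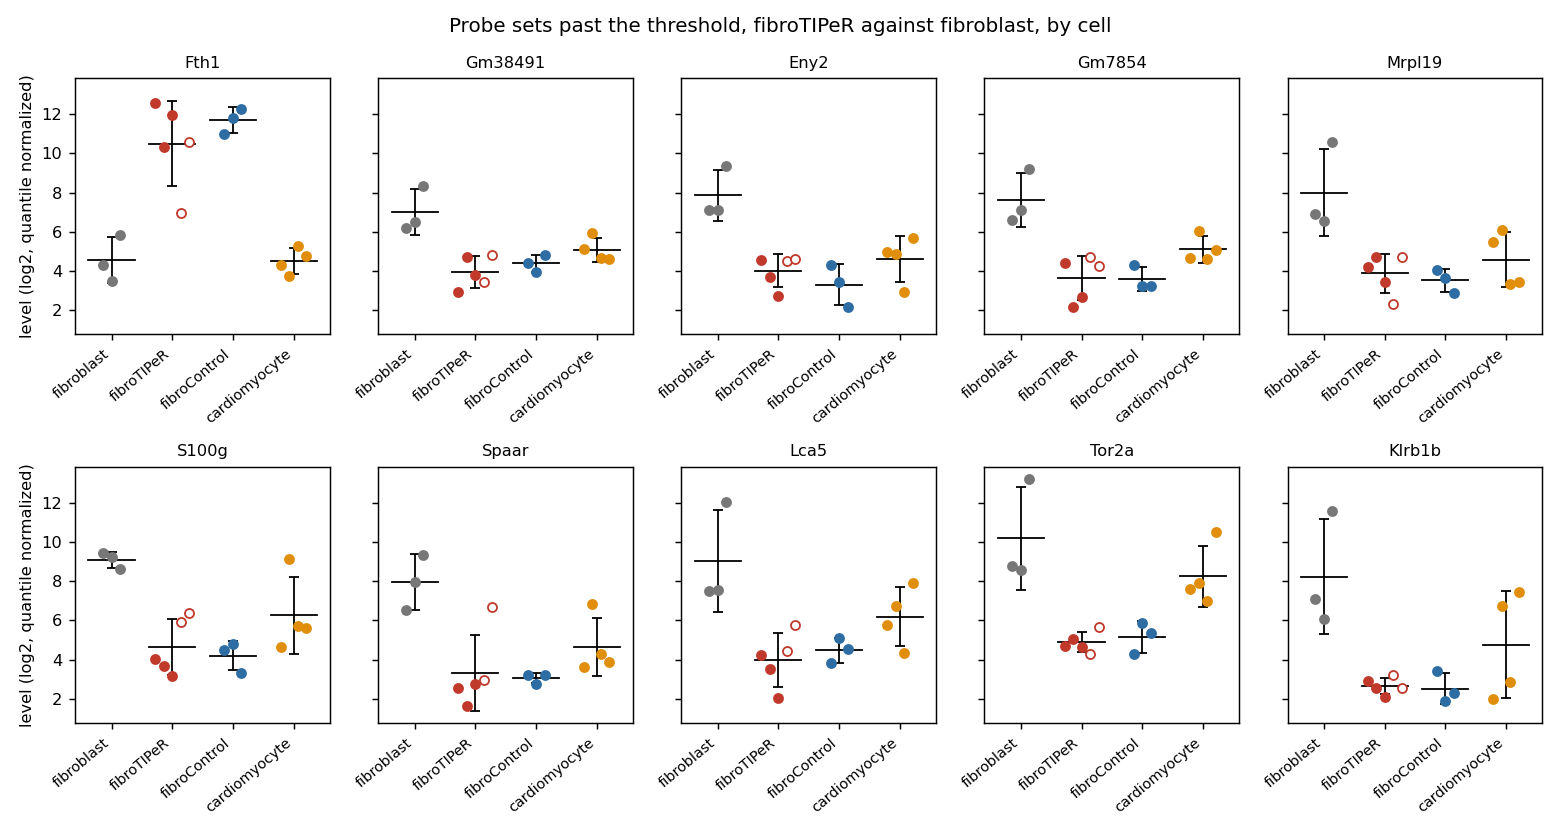
The 10 probe sets that passed between fibroTIPeR and fibroblast cells. Each point is 1 cell (open red circles are fibroTIPeR 4 and 5), the y axis is the log2 level after quantile normalization, and lines and bars are the group mean and SD. Fth1 was high in fibroTIPeR and fibroControl cells, and the 9 others were low in both.

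With 1 probe set for each gene 10 genes passed, of which 5 were also among the probe sets above: Fth1, Gm38491, Gm7854, Lca5 and S100g. The other 5 fell in that fit and did not pass over all probe sets. They were the sodium-activated potassium channel Kcnt2 (-3.87), the replication clamp loader subunit Rfc3 (-5.66), the NF-kappaB regulator Nfkbiz (-4.58), the ubiquitin ligase Trim15 (-3.50) and D130051D11Rik (-3.30). Rfc3 had 4.03, 5.32, 4.29, 5.18 and 6.62 in fibroTIPeR and 11.04, 9.09 and 12.10 in fibroblast cells, and over all probe sets its adjusted p was 0.058. The Golgi protein Blzf1 and the serpin Serpinb5 were the other lower probe sets next in order of p, with differences of -3.17 and -3.82.

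The higher probe sets next after Fth1 did not pass, but their groups did not overlap. Hmga2, a chromatin protein of embryonic and dividing cells, came first. Its level was 10.72, 5.23, 7.57, 6.60 and 4.70 in fibroTIPeR 1 to 5 and 2.66, 1.75 and 2.66 in fibroblasts, a difference of 4.61 (SE 0.96, adjusted p = 0.0751). FibroControl cells had 6.24, 2.31 and 2.51, lower than fibroTIPeR by 3.28 (adjusted p = 0.42). Rab10, a small GTPase of vesicle transport, had 11.51, 5.77, 10.07, 8.88 and 9.38 against 4.82, 4.30 and 5.26 in fibroblasts and 3.82, 5.49 and 4.99 in fibroControl cells. On this probe set all fibroTIPeR cells were above all cells of both groups, by 4.32 (SE 0.96, adjusted p = 0.0961) and 4.35 (SE 0.96, adjusted p = 0.126) on average. The other Rab10 probe sets differed from fibroblasts by -0.78 and 1.44, and on each of them the groups overlapped.

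Arf1, a GTPase of Golgi coat assembly, stood at 7.45, 3.98, 7.26, 7.08 and 5.94 in fibroTIPeR and 3.89, 3.25 and 2.66 in fibroblast cells (adjusted p = 0.0956). The rise was on this probe set alone. The Arf1 probe set with the highest level averaged 12.51 in fibroTIPeR and 12.50 in fibroblast cells, a difference of 0.01. The remaining one differed by 0.76, and on each of them the groups overlapped. Atp6v1e1, a subunit of the proton pump that acidifies lysosomes, stood at 6.34, 9.03, 11.13, 6.11 and 7.0 against 3.22, 2.98 and 4.04 (adjusted p = 0.0978). Ckap4, a sheet-forming protein of the endoplasmic reticulum, differed by 4.53, with levels of 11.71, 8.27, 10.54, 5.82 and 5.94 in fibroTIPeR 1 to 5. Its level in fibroTIPeR 1 to 3 was above that in fibroTIPeR 4 and 5, as it was at 2 of these 14 higher probe sets, the other being the sialyltransferase St3gal1. The proteasome subunit Psmd6 differed by 2.81, the splicing kinase Clk1 by 2.90, the copper chaperone Ccs by 3.23, Hmgxb3 by 3.53, St3gal1 by 3.77 and Nbeal1 by 2.25. Hdgfl2, Ccdc28b and Rassf1 were near the top of the scale in every cell, and their differences of 0.47, 0.50 and 0.27 were small. On these probe sets fibroTIPeR minus fibroControl was 1.83 for Arf1, 1.58 for Psmd6, 1.61 for Nbeal1 and 0.04 for Hmgxb3. It was -0.67 for Atp6v1e1, -2.08 for Ckap4, -0.93 for Clk1, -0.16 for Ccs and -1.15 for St3gal1. For Hdgfl2, Ccdc28b and Rassf1 it was -0.17, -0.11 and -0.07, and none of these passed against fibroControl.

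Heart muscle genes were first checked in the cells the RNA came from. Cardiac troponin I (Tnni3), ventricular myosin light chain (Myl2) and alpha myosin heavy chain (Myh6) were high in all 4 cardiomyocytes, at 10.54, 12.25, 12.81 and 12.24, at 8.60, 10.12, 10.50 and 10.36 and at 9.90, 11.55, 11.76 and 10.44. The atrial hormone Nppa was low in them, at 5.66, 5.23, 2.84 and 3.82, and the troponin T probe set of Tnnt2 with the highest mean, at 7.77, 7.56, 8.52 and 8.13, did not set them apart from fibroblasts at 7.68, 6.41 and 11.28. In the untreated fibroblasts vimentin stood at 14.61, 14.57 and 15.38 and the calcium-binding protein S100a4 at 12.17, 12.68 and 14.34. The receptor Pdgfra was high in fibroblast 3 and low in the other fibroblasts, at 4.57, 4.61 and 11.71.

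Sarcomere genes that mark the donor were low in the recipients. Tnni3 stood at 5.92, 6.58, 3.84, 4.65 and 4.26 in fibroTIPeR 1 to 5 and at 4.73, 5.43 and 4.12 in untreated fibroblasts. The difference from fibroblasts was 0.29 with a 95% interval of -1.37 to 1.95. No fibroTIPeR cell came near the lowest cardiomyocyte, and the difference from cardiomyocytes was -6.91 (SE 0.74, adjusted p = 3.09e-06). Myl2 had 4.03, 2.95, 3.98, 2.43 and 3.18 in fibroTIPeR cells, -6.58 from the cardiomyocytes, and Myh6 had 4.98, 5.32, 4.52, 5.28 and 5.38. The fibroblasts had 5.67, 5.69 and 8.48 for Myh6, so fibroTIPeR cells lay below all of them, with fibroblast 3 well above the others; the difference was -1.52 (SE 0.73, adjusted p = 0.473). Myoz2, which tethers calcineurin to the Z-disc, had 4.03, 5.32, 5.77, 4.85 and 4.81 in fibroTIPeR and 4.70, 5.28 and 2.95 in fibroblast cells, against 8.61 to 11.03 in cardiomyocytes. Of 25 measured sarcomere genes 0 passed between fibroTIPeR and fibroblast cells, with 0 higher and 1 lower, Myh6, at an unadjusted p under 0.05 in limma, where 4.33% of all genes were higher and 5.56% lower. The median difference was 0.16. Against cardiomyocytes 7 of the 25 were lower and 0 higher, where 0.137% of all genes were lower and 0.5% higher; they were Myh6, Myl2, Tnni3, Myoz2, Mybpc3, Csrp3 and Nebl. The result for Tnni3 moved in sign, from 0.29 to -0.31, with fibroTIPeR 4 and 5 alone.

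Some heart genes were higher in single recipient cells. Mybpc3, the myosin-binding protein C of heart, had 8.82, 7.46, 9.83, 6.18 and 5.66 in fibroTIPeR and 6.30, 5.20 and 8.27 in fibroblast cells, with fibroTIPeR 1 and 3 above all fibroblasts and below the cardiomyocytes at 10.63 to 11.97. The myosin light chain Myl3 was at 11.08 in fibroTIPeR 1, above the cardiomyocytes at 9.06 to 10.73, and at 5.53 to 7.64 in the other fibroTIPeR cells. Cardiac actin (Actc1) was at 8.47 in fibroTIPeR 2, where the cardiomyocytes had 8.40 to 9.68, and at most 6.82 in the other treated cells. The small heat shock protein Cryab had 13.29, 8.76, 12.50, 7.13 and 6.58, with fibroTIPeR 1 and 3 above every cardiomyocyte, and 11.02, 7.82 and 4.40 in fibroControl cells. The untreated fibroblasts had 5.78, 6.35 and 6.25 for Actc1. Cryab was not among the genes higher in all cardiomyocytes than in all fibroblasts. FibroTIPeR 1 was high for Mybpc3, Myl3 and Cryab, fibroTIPeR 3 for Mybpc3 and Cryab, and fibroTIPeR 2 for Actc1. FibroTIPeR 1 and 3 also had the highest 18S levels of the treated cells, 12.38 and 13.48, and the part of that was not tested. For none of these genes was the difference between the groups past the threshold.

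Calcium handling genes also differed between the treated cells. The sarcoplasmic calcium pump Atp2a2 had 10.85, 8.62, 10.59, 7.09 and 6.41 in fibroTIPeR 1 to 5, 5.39, 5.11 and 10.60 in fibroblasts, 4.17, 4.12 and 5.33 in fibroControl cells and 11.58, 12.60, 12.98 and 13.05 in cardiomyocytes. FibroTIPeR cells all lay above the fibroControl cells, by 4.17 (SE 1.09, adjusted p = 0.306), but fibroblast 3 was as high as fibroTIPeR 1 and 3. Against fibroblasts the difference was 1.67 (SE 1.09, adjusted p = 0.63), and -0.29 with fibroTIPeR 4 and 5 alone. The other 5 Atp2a2 probe sets differed by -0.13 to 1.40. The ryanodine receptor Ryr2, the release channel, had 3.22, 5.58, 4.21, 4.92 and 2.55 against 6.44 to 8.26 in cardiomyocytes, and phospholamban (Pln), the brake on the pump, 4.22, 4.59, 5.82, 5.96 and 7.46 against 8.06 to 10.56. These 2 of 24 genes of calcium handling and excitability were lower than in cardiomyocytes at an adjusted p of 0.0113 and 0.0191, where 0.137% of all genes were lower. Against fibroblasts 0 of the 24 passed in limma, with 0 higher and 4 lower at an unadjusted p under 0.05, against 4.33% and 5.56% of all genes, and a median difference of -0.11. Within the list 10 of the 24 genes were lower in each of fibroTIPeR 1 to 3 than in fibroTIPeR 4 and 5, where 16.9% of all genes were. The L-type calcium channel Cacna1c, at 4.22, 4.88, 5.12, 8.73 and 7.62, and the connexin Gja5, at 4.85, 6.78, 4.86, 9.23 and 10.12, were among them, and fibroblasts had 8.19, 10.31 and 8.95 and 10.67, 10.37 and 8.28.

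Heart metabolism and cardiac transcription factors gave no gene past the threshold against fibroblasts, of 23 and 18 measured, with median differences of 0.18 and -0.08. At an unadjusted p under 0.05 in limma 1 metabolic gene was lower and no factor differed, against 4.33% of all genes higher and 5.56% lower. Against cardiomyocytes 0.137% of all genes were lower, and so were 6 of the 23 metabolic and hormone genes. They were myoglobin (Mb), the mitochondrial creatine kinase Ckmt2, the fatty acid transporter Cd36, lipoprotein lipase (Lpl), the lipid droplet protein Plin5 and the cytochrome oxidase subunit Cox7a1. Plin5 had 3.81, 5.15, 4.23, 3.8 and 3.54 in fibroTIPeR cells against 8.89 to 10.80 in cardiomyocytes, and the groups differed by -5.76 (SE 0.52, adjusted p = 2.04e-07). Lpl had 6.10, 7.51, 5.41, 6.30 and 8.69 in fibroTIPeR and 5.85, 5.63 and 5.59 in fibroblast cells, so that 4 of 5 treated cells but not fibroTIPeR 3 lay above the fibroblasts, and all 5 below the cardiomyocytes at 9.63 to 11.68.

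Of the factors, Nkx2-5, a homeobox factor of heart development, had 9.08, 10.81, 10.00, 10.27 and 8.66 in fibroTIPeR cells, 9.64, 8.97 and 6.78 in fibroblasts and 9.99, 10.70, 10.49 and 10.69 in cardiomyocytes. FibroTIPeR 2, 3 and 4 lay above all fibroblasts. The fibroControl cells had 11.35, 8.12 and 10.18, and the difference of fibroTIPeR from them was -0.12 (adjusted p = 0.989 in limma). Gata4 differed by 1.08 on 1 probe set and -0.75 on the other, and Hand2 by 0.87 on the probe set with the highest mean. Tbx5 differed by -0.40 and Mef2c by -0.41, and both turned positive with the 18S level as a covariate, at 1.0 and 0.05. Against cardiomyocytes 0 of the 18 passed.

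**Figure D2:**
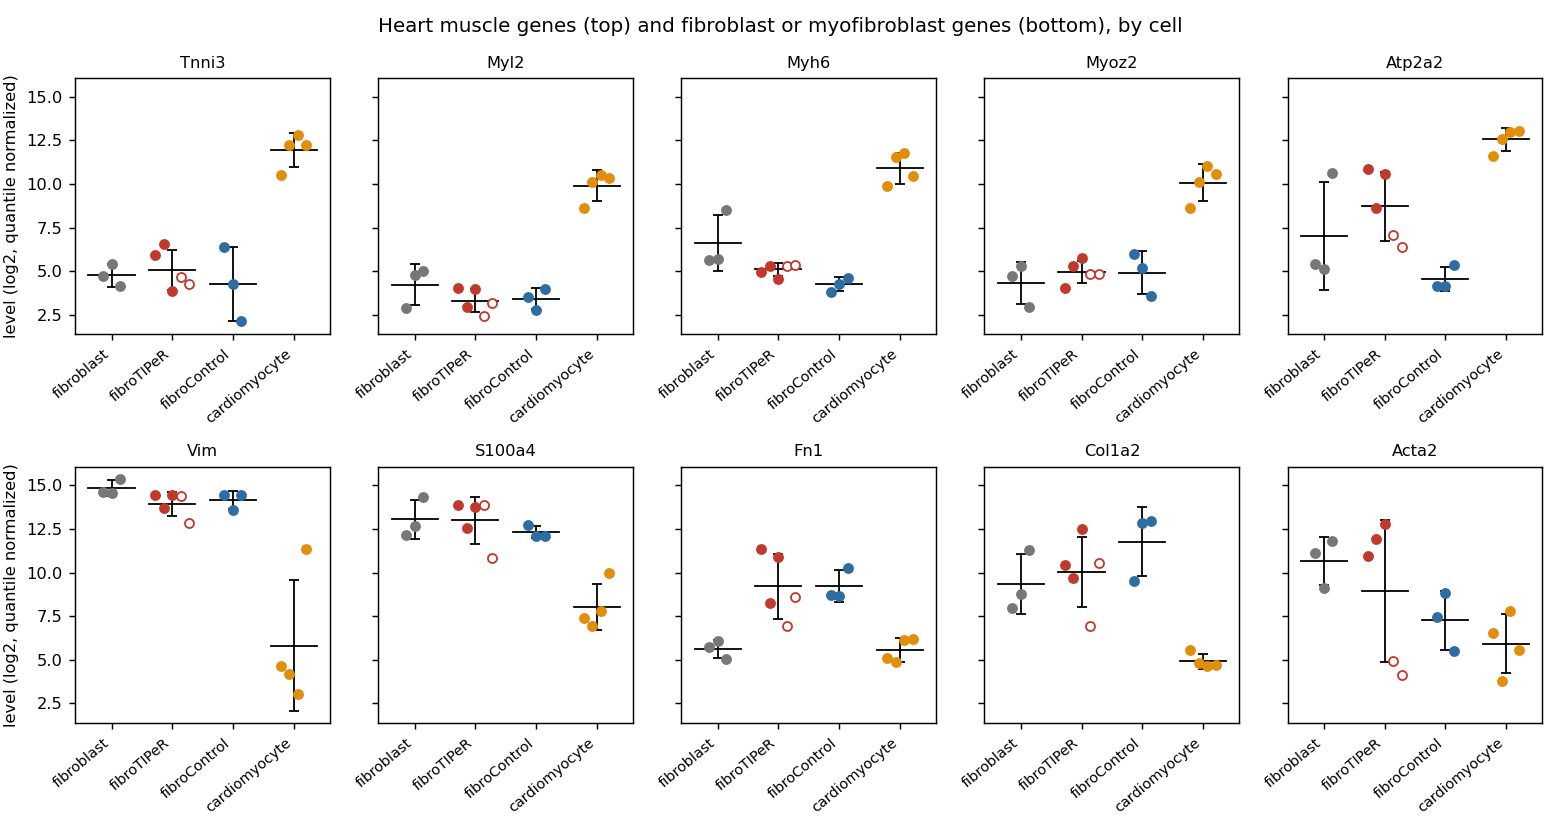
Levels of 5 heart muscle genes (top) and 5 fibroblast or myofibroblast genes (bottom) in single cells; each point is 1 cell, open red circles are fibroTIPeR 4 and 5, and lines and bars are the group mean and SD of the log2 level. Tnni3, Myl2, Myh6 and Myoz2 were highest in cardiomyocytes, Myh6 was also at 8.48 in fibroblast 3, and Acta2 lay between 10.98 and 12.79 in fibroTIPeR 1 to 3 and under 5 in fibroTIPeR 4 and 5.

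The heart lists were then counted cell by cell. Over the 4 lists, 30 of 90 measured genes were higher in all 4 cardiomyocytes than in all 3 fibroblasts, as were 8.41% of all genes. Of these 30, the number above the highest fibroblast was 10 in fibroTIPeR 1, 15 in fibroTIPeR 2, 10 in fibroTIPeR 3, 8 in fibroTIPeR 4 and 6 in fibroTIPeR 5. In the fibroControl cells, which had no cardiomyocyte RNA, it was 13, 7 and 9. The number at or above the lowest cardiomyocyte was 5, 10, 4, 3 and 0 in fibroTIPeR 1 to 5 and 5, 3 and 4 in the fibroControl cells. Over all 1530 genes with this order, 29.9%, 74.4%, 43.6%, 62.3% and 59.0% were above the highest fibroblast in fibroTIPeR 1 to 5 and 52.8%, 58.0% and 58.0% in the fibroControl cells. At or above the lowest cardiomyocyte were 22.9%, 61.5%, 28.0%, 38.3% and 37.3% of the 1530 in fibroTIPeR 1 to 5. In the fibroControl cells these shares were 38.8%, 41.4% and 39.0%. FibroTIPeR 2 had the most heart genes by both counts, and the other fibroTIPeR cells lay within or below the range of the fibroControl cells. FibroTIPeR 2 was also highest over all 1530 genes, and its 15 and 10 of 30 were smaller shares than its 74.4% and 61.5% there. The 30 genes were chosen on the cardiomyocytes and fibroblasts, so the counts describe these cells and carry no test.

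**Figure D3:**
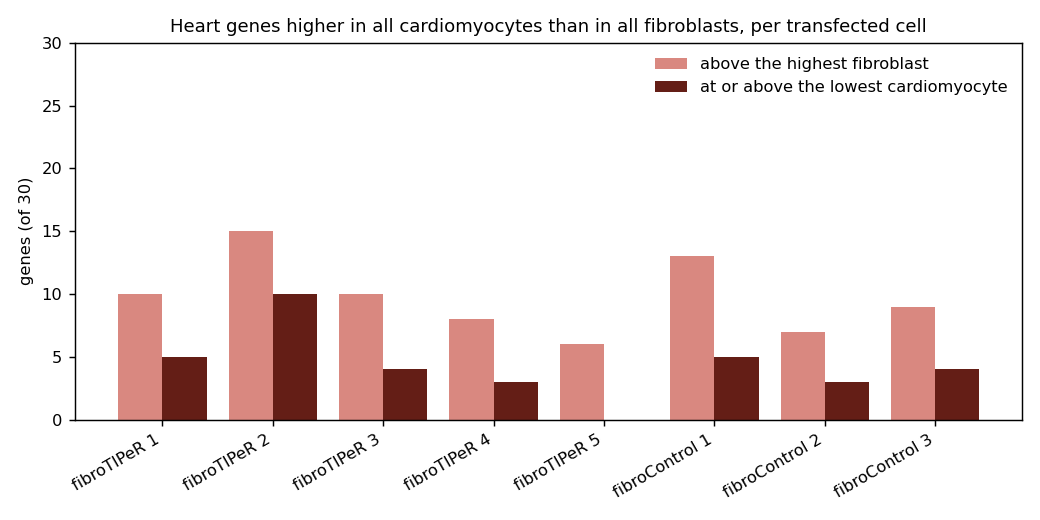
For each transfected cell, bars count the heart genes above the highest untreated fibroblast (light) and at or above the lowest cardiomyocyte (dark), among 30 that were higher in all cardiomyocytes than in all fibroblasts. FibroTIPeR 2 had 15 and 10, and the fibroControl cells had 7 to 13 and 3 to 5.

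Probe sets with a donor-like pattern over all genes were few. All fibroTIPeR cells and cardiomyocytes lay above all fibroblasts and fibroControl cells at 10 of 34945 probe sets (0.0286%), and below them at 8 (0.0229%). The higher ones were those of the tight junction protein Cldn18, the steroid dehydrogenase-like Hsdl2, the peroxin-related Pex5l, the chromatin remodeller subunit Smarcd1, the ephrin Efnb1, the phosphoinositide phosphatase Ocrl, the homeobox factor Zfhx4, Tspyl5, the lactate dehydrogenase Ldhb (1455235_x_at) and the RNA-binding protein Igf2bp3. None is a sarcomere or calcium handling gene. Zfhx4 had 3.81, 3.83, 3.38, 3.97 and 3.85 in fibroTIPeR and 2.19, 1.93 and 2.83 in fibroblast cells, and cardiomyocytes had 4.28, 4.95, 4.01 and 5.47; the adjusted p against fibroblasts was 0.319. Ldhb had 11.83, 11.28, 11.49, 11.34 and 11.16 against 10.71, 11.05 and 10.41. Of its 4 probe sets 2, this one included, had a positive difference from fibroblasts. The same was so for 1 of 4 for Pex5l, 1 of 3 for Efnb1, and 1 of 2 each for Cldn18, Hsdl2 and Smarcd1. It was 4 of 6 for Igf2bp3, 3 of 3 for Ocrl and 2 of 2 for Zfhx4, and Tspyl5 had 1 probe set.

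On the lower side, Medag, a regulator of fat cell differentiation, showed the widest gap. Its level was 6.77, 6.89, 5.53, 3.65 and 6.33 in fibroTIPeR cells and 4.65, 7.04, 4.17 and 5.14 in cardiomyocytes, against 7.95, 10.43 and 11.90 in fibroblasts and 9.96, 9.56 and 10.27 in fibroControl cells. FibroTIPeR was lower than fibroblast by 4.26 (adjusted p = 0.0955) and lower than fibroControl by 4.09 (adjusted p = 0.156). Hif1a, the hypoxia-regulated transcription factor, had 4.03, 5.23, 5.71, 5.05 and 6.58 in fibroTIPeR and 6.78, 6.82 and 7.30 in fibroblast cells (adjusted p = 0.415). The others were the centrin Cetn1, the motor neuron homeobox factor Isl2, the methyl-CpG-binding protein Mbd2, the complex I subunit Ndufs4, Dennd2c and LOC100125594, with differences of -1.72 to -0.47. Only 1 of 4 probe sets for Ndufs4 and 1 of 2 for Cetn1 had a negative difference from fibroblasts. It was 4 of 4 for Hif1a and 2 of 2 for Medag and Mbd2, and the rest had 1 probe set. Because the 4 groups chose these 18 probe sets, their order is a description.

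Fibroblast genes were high in the recipients in part. Vimentin had 14.43, 13.69, 14.43, 14.38 and 12.87 in fibroTIPeR and 14.61, 14.57 and 15.38 in fibroblast cells on the probe set with the highest mean, and 4.65, 4.17, 3.05 and 11.38 in cardiomyocytes. Against cardiomyocytes fibroTIPeR cells were higher by 8.15 (SE 0.98, adjusted p = 2.55e-05). On its 2 other probe sets fibroTIPeR cells were above fibroblasts by 2.10 and 2.16, and the mean of the 3 was 1.12, so the sign against fibroblasts depended on the probe set; none passed. S100a4 had 13.89, 12.58, 13.77, 13.89 and 10.83 against 12.17, 12.68 and 14.34 in fibroblasts. Type I collagen (Col1a1) had 5.10, 8.27, 8.13, 6.95 and 7.03 against 7.25, 7.04 and 9.69, and fibroControl cells had 7.61, 10.52 and 10.60. Pdgfra, with 6.34, 4.12, 4.99, 7.84 and 5.14, and Col6a3, with 3.54, 5.65, 3.87, 4.36 and 7.24, were low in most fibroTIPeR cells. The surface protein Thy1 had 7.09, 9.17, 8.13, 9.87 and 7.54 in fibroTIPeR and 6.55, 6.77 and 5.52 in fibroblast cells, with no overlap. It was higher in fibroTIPeR cells by 2.08 (SE 0.81, adjusted p = 0.37 in limma), and fibroControl cells had 9.02, 7.79 and 8.54. Of 31 measured genes of the fibroblast matrix list 0 passed against fibroblasts, 15 had a positive and 16 a negative difference, and the median was -0.07. At an unadjusted p under 0.05 there were 4 higher and 5 lower, where 4.33% and 5.56% of all genes were. Against cardiomyocytes 0.5% of all genes were higher and 0.137% lower. In this list 6 were higher and 0 lower: Vim, S100a4, Col1a2, Fn1, Timp2 and the proteoglycan Bgn.

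Single matrix genes differed between the cells. Fibronectin (Fn1) had 11.37, 8.23, 10.91, 6.96 and 8.62 in fibroTIPeR cells, all above the fibroblasts at 5.72, 6.07 and 5.05, a difference of 3.61 (SE 0.93, adjusted p = 0.16); fibroControl cells had 8.73, 8.63 and 10.28. P4hb, the protein disulfide isomerase subunit of collagen prolyl hydroxylase, had 11.05, 6.89, 8.12, 4.69 and 4.0 against 2.45, 2.06 and 4.04, with fibroTIPeR 5 below fibroblast 3, and a difference of 4.10 (SE 1.18, adjusted p = 0.232). Type III collagen (Col3a1) had 4.71, 5.82, 5.32, 4.45 and 7.24 in fibroTIPeR cells and 9.24, 4.73 and 12.53 in fibroblasts. It was over 12 in fibroblast 3 and in fibroControl 2 and 3, and under 8 in every fibroTIPeR cell; the difference from fibroblasts was -3.32 (SE 1.53, adjusted p = 0.449). Lumican (Lum), a collagen-binding proteoglycan, had 2.18, 2.36, 2.54, 4.52 and 4.26 against 5.42, 5.63 and 5.05, with no overlap (adjusted p = 0.271).

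Contractile genes of the myofibroblast split the treated cells. Smooth muscle actin (Acta2) had 10.98, 11.91, 12.79, 4.94 and 4.14 in fibroTIPeR 1 to 5 and 11.11, 9.12 and 11.80 in fibroblasts. FibroTIPeR 1 to 3 lay within or above the range of the fibroblasts and fibroTIPeR 4 and 5 below all of them. The actin-binding protein transgelin (Tagln) had 12.46, 11.02, 13.53, 4.96 and 4.50 against 6.90, 5.82 and 7.63; here fibroTIPeR 1 to 3 were above all fibroblasts and fibroTIPeR 4 and 5 below all of them. Calponin 2 (Cnn2), with 12.82, 11.87, 12.67, 6.54 and 7.89, and filamin A (Flna), with 11.43, 8.55, 11.99, 6.18 and 5.77, were also higher in each of fibroTIPeR 1 to 3 than in fibroTIPeR 4 and 5. Fibroblasts had 5.87, 5.53 and 6.83 for Flna, so fibroTIPeR 4 and 5 lay within their range. The fibroControl cells had 7.46, 8.86 and 5.49 for Acta2 and 10.48, 7.30 and 5.37 for Tagln, in both cases below fibroTIPeR 1 to 3. Of 14 measured genes 0 passed against fibroblasts in limma, with 1 higher and 0 lower at an unadjusted p under 0.05 and a median difference of -0.32. The shares over all genes at that p were 4.33% and 5.56%. Caldesmon (Cald1) was higher than in cardiomyocytes by 7.56 (SE 0.77, adjusted p = 1.54e-06).

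Genes of the cytosolic ribosome were the list with the highest median difference, 1.03 over 21 measured genes against 0.0040 over all genes. None passed the threshold. At an unadjusted p under 0.05 there were 7 higher and 0 lower, where 4.33% of all genes were higher and 5.56% lower, and 17 of the 21 had a positive difference. The small subunit protein Rps3 had 12.25, 9.44, 11.06, 6.56 and 6.65 in fibroTIPeR and 5.10, 5.49 and 6.23 in fibroblast cells, with no overlap and a difference of 3.59 (SE 1.02, adjusted p = 0.228). The stalk protein Rplp0 had 10.44, 6.54, 7.62, 4.54 and 6.14 against 3.89, 4.12 and 3.63, again with no overlap (adjusted p = 0.21). The order followed the 18S level: 14 of the 21 genes were higher in each of fibroTIPeR 1 to 3 than in fibroTIPeR 4 and 5, where 12.4% of all genes were. The median level of the list was 11.37, 9.04, 11.06, 7.79 and 8.21 in fibroTIPeR 1 to 5, 7.16, 7.84 and 9.59 in fibroblasts and 10.16, 10.03 and 9.69 in fibroControl cells. Fibroblast 3 lay above fibroTIPeR 2, 4 and 5 by this measure. The fibroControl cells were at the level of the higher fibroTIPeR cells, and the median difference from them was -0.59.

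The cytoskeleton, lysosome and respiratory chain had smaller positive medians. The actin and tubulin list had a median difference of 0.66 with 0 of 24 past the limma threshold, 1 higher and 1 lower at an unadjusted p under 0.05, and 14 of its genes were higher in each of fibroTIPeR 1 to 3 than in fibroTIPeR 4 and 5. Among all genes 4.33% were higher and 5.56% lower at that p, and 12.4% had that order of cells. Beta-actin (Actb) had 13.89, 11.35, 14.64, 10.93 and 10.33 in fibroTIPeR and 9.51, 10.17 and 12.41 in fibroblast cells. Against cardiomyocytes 12 of the 24 were higher and 0 lower, where 0.5% of all genes were higher and 0.137% lower. Among the 12, the alpha-actinin Actn1 was higher by 6.57 and the tubulin Tuba1a by 6.33. The lysosome and endosome list had a median of 0.64 with 0 of 20 past the threshold, 3 higher and 0 lower at an unadjusted p under 0.05. In each of fibroTIPeR 1 to 3, 2 of its genes were higher and 1 lower than in fibroTIPeR 4 and 5, where 12.4% and 16.9% of all genes were. Its median level was 10.53, 6.38, 8.60, 7.06 and 8.19 in fibroTIPeR 1 to 5, lowest in fibroTIPeR 2. Prosaposin (Psap), which activates lysosomal lipid hydrolases, had 12.30, 6.11, 11.72, 7.05 and 7.49 against 5.23, 5.69 and 5.66 with no overlap and an adjusted p of 0.398. The aspartic protease Ctsd had 10.28, 6.28, 8.62, 4.90 and 4.81 against 4.52, 4.04 and 4.63, also with no overlap (adjusted p = 0.417). Oxidative phosphorylation had a median of 0.61 with 0 of 29 past the threshold, 4 higher and 0 lower at an unadjusted p under 0.05; 8 were higher and 3 lower in each of fibroTIPeR 1 to 3 than in fibroTIPeR 4 and 5. The ATP synthase subunit Atp5c1 had 9.42, 4.88, 9.16, 5.15 and 4.61 against 5.04, 1.93 and 4.69, high in fibroTIPeR 1 and 3 alone.

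Translation factors went both ways. Pabpc1, which binds the poly-A tail, had 12.87, 10.85, 12.43, 8.49 and 7.75 in fibroTIPeR and 6.95, 6.75 and 7.59 in fibroblast cells, a difference of 3.38 (SE 0.97, adjusted p = 0.232) with no overlap. Naca, of the complex that guards nascent chains at the ribosome, had 7.25, 7.66, 5.07, 6.34 and 9.40 against 11.11, 10.22 and 14.43, a difference of -4.78 (SE 1.08, adjusted p = 0.102) with no overlap; cardiomyocytes had 8.23, 10.07, 8.20 and 11.89 and fibroControl cells 5.88, 3.62 and 3.82. Of 22 measured genes 0 passed in limma, 4 were higher and 1 lower at an unadjusted p under 0.05, and the median was 0.09. The shares over all genes at that p were 4.33% and 5.56%.

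**Figure D4:**
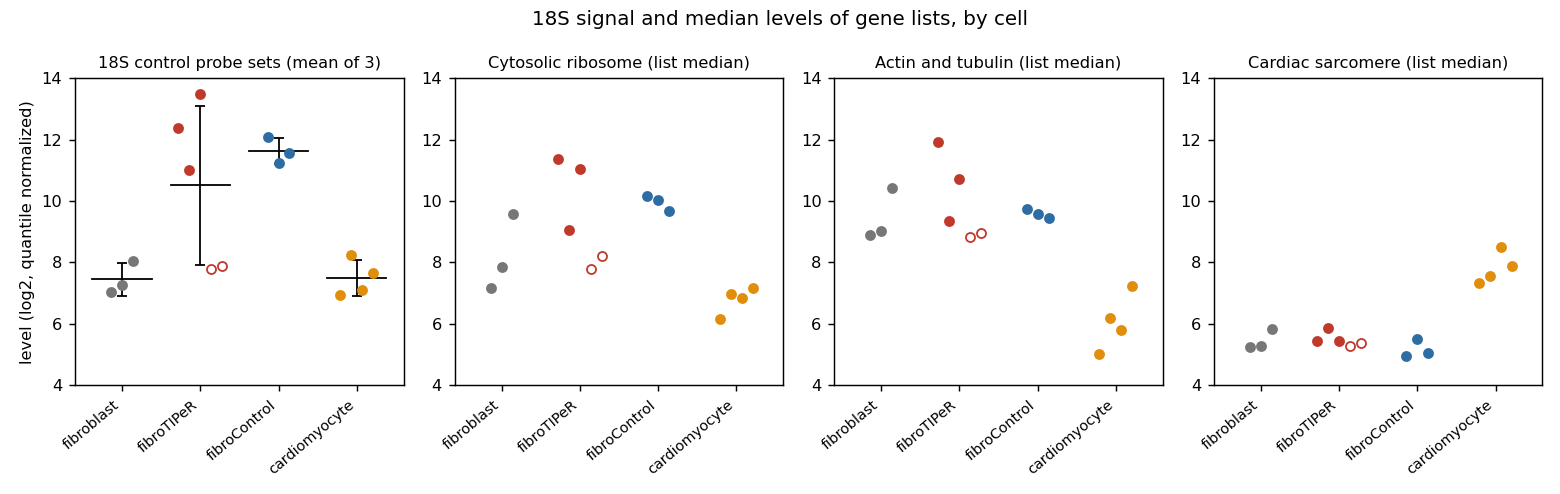
Levels by cell of the 18S control probe sets (left, with group mean and SD) and the median level of 3 gene lists; each point is 1 cell, open red circles are fibroTIPeR 4 and 5, and the y axis is log2 after quantile normalization. FibroTIPeR 1 to 3 lay at 11.03 to 13.48 for 18S and 9.04 to 11.37 for the ribosome list, fibroTIPeR 4 and 5 at 7.80 to 7.88 and 7.79 to 8.21, and the sarcomere list was low in both.

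Sterol synthesis had the lowest median of the lists, -0.55 over 17 measured genes, of which 0 passed in limma and 0 were higher and 2 lower at an unadjusted p under 0.05. The shares over all genes at that p were 4.33% and 5.56%. Hmgcs1, which makes the precursor of mevalonate, had 6.73, 3.68, 7.21, 5.69 and 4.0 in fibroTIPeR and 7.75, 9.24 and 11.85 in fibroblast cells, and the isomerase Idi1 4.58, 5.87, 3.73, 4.74 and 5.22 against 6.16, 8.20 and 8.31. In both no cells overlapped, with differences of -4.15 (SE 1.06, adjusted p = 0.158) and -2.73 (SE 0.71, adjusted p = 0.16). Insig1, a sensor of sterols, was at 2.55, 8.82, 4.15, 3.8 and 5.14 against 2.72, 7.39 and 11.11, with overlap. For Hmgcs1, Idi1 and Insig1 fibroblast 3 was the highest of the 8 cells.

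In the S100 and primary cilium lists the members that passed were S100g and Lca5 alone, of 16 and 23 measured, where 0.0275% of all genes did. At an unadjusted p under 0.05 in limma 0 were higher in both lists. At that p 2 were lower in the S100 list and 3 in the cilium list. Among all genes 4.33% were higher and 5.56% lower. The S100 list had a median of -0.43, and the cilium list 0.05. Against cardiomyocytes S100a4, S100a6 and S100a10 were higher in fibroTIPeR cells, and no cilium gene passed. Among all genes 0.5% were higher and 0.137% lower there.

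Cell division and DNA replication gave no gene past the threshold over all probe sets, of 24 and 26 measured, with medians of -0.16 and 0.19. At an unadjusted p under 0.05 in limma 3 were higher and 3 lower in the first list, and 2 and 2 in the second, against 4.33% and 5.56% of all genes. Rfc3, of the replication list, was the member that passed with 1 probe set for each gene. The kinase Melk was among the list genes with the widest range over the treated cells, at 11.40, 4.37, 11.66, 6.88 and 8.57, and fibroblasts had 2.66, 2.54 and 7.10. Cdc20, an activator of the anaphase-promoting complex, had 11.90, 12.23, 12.08, 12.31 and 12.19 against 13.003, 12.74 and 12.84 with no overlap and a small difference of -0.72 (SE 0.20, adjusted p = 0.228). The helicase subunit Mcm4 had 8.23, 8.74, 4.78, 4.70 and 3.72 against 3.09, 1.75 and 2.66 (adjusted p = 0.158), also with no overlap.

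Responses that added RNA might call on were looked at as well. Foreign RNA is sensed in many cells by receptors and kinases that lead to interferon. None of 26 measured interferon and foreign RNA genes passed in limma, 1 was higher and 3 lower at an unadjusted p under 0.05, and the median was -0.21. Among all genes 4.33% were higher and 5.56% lower at that p. The RNA-activated kinase Eif2ak2 had 5.32, 4.59, 5.10, 4.96 and 5.46 in fibroTIPeR and 5.96, 6.21 and 6.83 in fibroblast cells, a difference of -1.25 (SE 0.54, adjusted p = 0.417) with no overlap. The single-stranded RNA receptor Tlr7 had 4.03, 3.68, 3.95, 5.30 and 5.77 against 5.12, 6.42 and 7.89 (adjusted p = 0.308). Both were lower, not higher, in cells with cardiomyocyte RNA than in untreated fibroblasts, and neither passed. The fibroControl cells had 4.95, 4.12 and 4.86 for Eif2ak2 and 3.22, 3.42 and 2.18 for Tlr7. The differences of fibroTIPeR from fibroControl were 0.44 for Eif2ak2 and 1.60 for Tlr7, and neither passed. For Tlr7 all fibroTIPeR cells lay above all fibroControl cells. The inflammatory list had a median of -0.19 over 23 genes, with the chemokine Ccl2 at 5.76, 5.46, 5.38, 5.27 and 6.14 against 6.18, 7.78 and 9.79. Stress and unfolded protein genes had a median of 0.11 over 22, with the chaperone Hspa5 at 7.05, 9.09, 9.42, 9.51 and 10.75 against 11.47, 11.21 and 10.49; immediate early genes had -0.06 over 21, with Btg2 at 9.24, 4.49, 7.82, 4.83 and 6.96 against 3.82, 3.62 and 3.95. Over all probe sets no gene of these 3 lists passed in limma, although Nfkbiz, of the inflammatory list, passed with 1 probe set for each gene; at an unadjusted p under 0.05 there were 0, 0 and 1 higher and 2, 2 and 0 lower.

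Markers of cell types that a culture could also hold did not pass either: 0 of 22 skeletal muscle, 0 of 14 astrocyte, 0 of 14 neuron, 0 of 12 endothelial, 0 of 14 macrophage and blood, 0 of 12 epithelial and 0 of 12 pluripotency genes. At an unadjusted p under 0.05 in limma, where 4.33% of all genes were higher and 5.56% lower, 0 to 1 were higher and 1 to 3 lower in each list. Their median differences ran from -0.45 in the astrocyte list to 0.0069 in the epithelial one. The median level of the astrocyte list was 4.59 to 6.09 in fibroTIPeR and 5.83 to 6.71 in fibroblast cells, and that of the endothelial list 4.49 to 5.85 and 5.48 to 5.64. The astrocyte filament gene Gfap was low in all of them, at 4.12 to 6.07 and 4.85 to 6.36 on 1426508_at. The hemoglobin gene Hba-a1 had 5.10, 8.77, 5.89, 7.59 and 8.82 against 10.73, 10.54 and 9.80 with no overlap (adjusted p = 0.178), and the germ cell gene Dppa3 5.21, 5.46, 5.28, 5.20 and 3.18 against 5.89, 6.90 and 7.89.

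**Figure D5:**
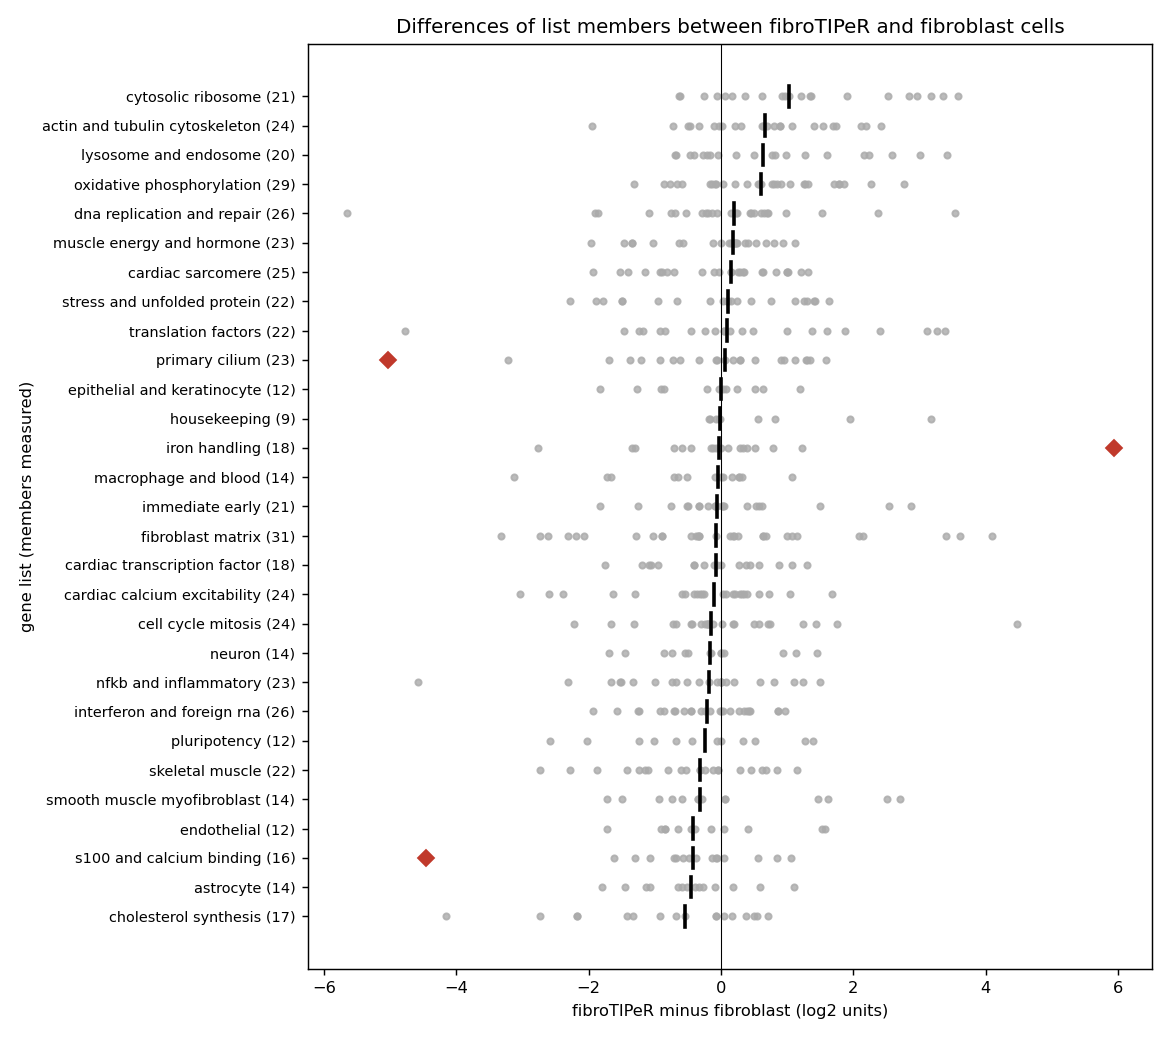
Differences between fibroTIPeR and fibroblast cells for the members of 29 gene lists. Each grey point is 1 gene, red diamonds are genes past the adjusted p of 0.05 (Fth1, Lca5 and S100g), black bars are list medians, and the numbers of measured members stand in parentheses. Medians ran from -0.55 for sterol synthesis to 1.03 for the ribosome.

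The 5 fibroTIPeR cells spanned wide ranges for many genes that the group means hide. Besides Melk, Acta2, Tagln and Psap, the type V collagen Col5a2 had 10.10, 6.11, 10.33, 2.18 and 4.98, the cathepsin Ctsl 10.89, 3.68, 10.99, 5.65 and 6.18 and the lysosomal membrane protein Lamp2 12.25, 5.15, 11.65, 11.90 and 10.63. FibroTIPeR 1 and 3 were high for each, and fibroTIPeR 2 was low in Ctsl and Lamp2. The fatty acid oxidation enzyme Hadhb had 10.996, 2.76, 9.71, 7.34 and 7.0, the prostaglandin synthase Ptgs2 10.43, 3.34, 6.81, 9.99 and 7.49, the inducible heat shock protein Hspa1b 11.18, 4.59, 5.69, 7.21 and 3.37 and the actin-severing protein Dstn 11.71, 6.4, 8.26, 4.36 and 4.26. FibroTIPeR 1 was the highest in each of these. The pairwise correlation of fibroTIPeR cells over all probe sets ran from 0.62, between cells 1 and 5, to 0.84, between cells 4 and 5.

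Comparison with the fibroControl cells sets RNA of different donors side by side. It does not isolate the donor or the transfer. The 18S level was 7.80 and 7.88 in fibroTIPeR 4 and 5 and 11.23 to 12.08 in the fibroControl cells, and its part was not tested. No fibroblasts with a mock transfection were among the groups. Between fibroTIPeR and fibroControl cells 1 of 34945 probe sets passed in limma (0.00286%), and 2327 (6.66%) had an unadjusted p under 0.05. It was Cdsn, corneodesmosin, an adhesion protein of cornified epithelium. Cdsn had 3.22, 3.83, 4.88, 4.45 and 2.76 in fibroTIPeR 1 to 5, 7.12, 7.91 and 8.45 in fibroControl, 5.08, 5.20 and 3.95 in fibroblast and 4.49, 5.62, 4.58 and 4.35 in cardiomyocyte cells. FibroTIPeR was lower than fibroControl by 4.0 (SE 0.61, adjusted p = 0.0192), and the fibroControl cells stood above all cells of the other groups. Without fibroTIPeR 5 no probe set passed in limma, with 2271 at an unadjusted p under 0.05, and without fibroControl 1 there were 42. With fibroTIPeR 1 to 3 as the treated cells 3 passed, and Cdsn was not among them. With fibroTIPeR 4 and 5, 177 passed, of which 62 were higher and 115 lower. The count was 9 without fibroTIPeR 2, 6 without fibroControl 2, 4 without fibroTIPeR 3, and 2 without fibroTIPeR 1 or fibroControl 3; Cdsn was not among the last of these. Groups did not overlap at 532 probe sets with fibroTIPeR higher (1.52%) and 610 with it lower (1.75%). Against the cardiomyocytes 220 probe sets passed (0.63%), 170 higher (0.486%) and 50 lower (0.143%) in fibroTIPeR cells; this count ran from 75 without fibroTIPeR 3 to 538 without fibroTIPeR 5, and was 1682 with fibroTIPeR 1 to 3 and 13 with fibroTIPeR 4 and 5.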

How the data were processed

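The deposited table held log2 expression values per probe set and cell, as judged from their range; their summarization and normalization, like the genome build, were not given in the sources used here. Per the labels, single-cell RNA was amplified and biotin labelled. Column medians differed by 1.29, so the deposited values were quantile normalized over all 23 columns. The 64 control probe sets, 932 with several symbols and 9160 not listed in the annotation were left out of the tests; gene IDs of 34741 of the 34945 used matched RefSeq, and 0 symbols changed. limma 3.58.1 (R 4.3.3) was fitted with a mean per group over 23 cells, eBayes with trend, two-sided, adjusted over all probe sets. For lists a gene was its probe set of highest mean over all cells. Figures were drawn with matplotlib 3.10.9. The code was tested on simulated data.

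The cells, the 29 lists, the fixed genes and the tests were chosen with earlier results of these data known. Named were up to 15 probe sets per direction, past the threshold without overlap and then by smallest p; up to 4 passing members or the 2 of smallest p per list; 30 fixed genes; 10 per direction with the cardiomyocyte pattern; and the 10 list genes of widest range in fibroTIPeR cells. Other list members, Cdsn and Spaar were named after their values were seen. The fit was repeated under 14 alternative settings and without each cell in turn. The number of arrays limits the precision.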

Additional observations from a re-analysis of the deposited data

Results flagged for a closer look

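Of the named levels in the 5 fibroTIPeR cells, 102 but not all were examined for a single cell far from the others. By Dixon's test at the 95% level 2 of these 102 had one, where about 1 in 20 would by chance. Other named levels also had a single cell apart and are not in that count. Among them, Lamp2 had 5.15 in fibroTIPeR 2 and 10.63 to 12.25 in the others. Ryr2 on 1421126_at had 6.32 in fibroTIPeR 2 and 4.22 to 4.45 in the others. Spaar (1457660_x_at) had 6.69 in fibroTIPeR 5 and 1.62 to 2.94 in the other 4. Dppa3 (1424295_at) had 3.18 in fibroTIPeR 5 and 5.20 to 5.46 in the others.

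Cdsn (1435191_at) had a difference of -4.0 for fibroTIPeR minus fibroControl cells in limma (adjusted p = 0.0192). That comparison does not isolate the donor or the transfer. With fibroTIPeR 1 to 3 as the treated cells Cdsn did not pass. It was lower in all 5 fibroTIPeR cells than in all 3 fibroControl cells.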

How the results depend on the processing

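Between fibroTIPeR and fibroblast cells the limma count of 10 became 17 with the values as deposited, 161 with arrayWeights, 4 with robust eBayes, 3 with the mean of the probe sets of a gene, and 1 with median centring, with probe sets above the median level only or with eBayes without trend. It was 0 with quantile normalization within the 15 fibroblast and cardiomyocyte arrays, with the compared groups alone and with the 18S level as a covariate, where 3158, 2913 and 1990 had an unadjusted p under 0.05. It was 964 with fibroTIPeR 1 to 3 and 0 with fibroTIPeR 4 and 5, and 0 to 167 when 1 cell was left out. Against fibroControl the count of 1 became 3 with the mean of the probe sets, arrayWeights or fibroTIPeR 1 to 3, 6 with the 18S covariate and 177 with fibroTIPeR 4 and 5. It was 0 within the 15 arrays, above the median level, in the compared groups alone and with the replicate block (1226 to 1999 at an unadjusted p under 0.05), and 0 to 42 with 1 cell left out. Against cardiomyocytes the count of 220 became 145 as deposited, 101 within the 15 arrays, 133 with median centring, 102 with 1 probe set per gene, 70 with the mean of the probe sets, 40 in the compared groups alone, 18 with the 18S covariate, 1682 with fibroTIPeR 1 to 3 and 13 with fibroTIPeR 4 and 5, and ran from 75 to 538 with 1 cell left out. The 18S difference was 2.88 as deposited. The causes were not tested.

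With the replicate number as a block, 7 probe sets passed against fibroblasts, 2 higher and 5 lower, of which 5 were among the 10, and 214 passed against cardiomyocytes. Deviations of same-numbered fibroTIPeR and fibroblast cells from their group means correlated at -0.30, 0.19 and 0.26 over probe sets, and 2 of 3 fibroTIPeR cells correlated best with their own number. So few cells cannot settle whether the numbers pair them, and the labels give no pairing.

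Of the differences of named probe sets, 42 values over the settings changed sign, 1866 kept direction and side of the threshold, and 226 kept direction and crossed the threshold. With the mean of the probe sets Ccdc28b became -0.046, Rassf1 -0.22, Sox9 -0.12, Laptm5 -0.12, Tbx3 0.22, Hspa5 0.44, Mef2c 0.39 and Vim 1.12. With the 18S covariate Tmsb4x became -0.004, Ctsd -0.069, Ndufs3 -0.15, Flna -0.50, Atp2a2 -0.91, Nppa -0.30, Tbx3 0.64, Mef2c 0.053 and Tbx5 1.0. With fibroTIPeR 4 and 5 Ndufs3 became -0.13, Flna -0.10, Atp2a2 -0.29, Nppa -0.38, Tnni3 -0.31, Tbx3 0.22 and Tbx5 0.66. With arrayWeights Mef2c became 0.16, Pdgfra 0.40, Ryr2 0.22, S100a4 0.30 and Tnni3 -0.17, and with fibroTIPeR 1 to 3 S100a4 0.35. Leaving out 1 cell at a time, the difference ran from -0.27 to 0.62 for Actc1, -0.85 to 0.22 for Mef2c, -0.25 to 0.53 for Nppa, -2.48 to 1.09 for Pdgfra, -0.52 to 0.57 for S100a4, -0.99 to 0.053 for Tbx5, -0.094 to 0.62 for Tnni3 and -2.43 to 0.0058 for Tnnt2. None of these genes had passed in the comparison as reported, and the causes were not tested. The median difference of all probe sets was 0.0568 as reported, -0.0518 with the values as deposited and 0.0947 with median centring, a shift of over 0.1 between the first pair. The labels tie no cell to a culture or animal, and the number of arrays and the low signals limit what could pass.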
